A study of Mus musculus with 12 samples.

Results

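Semaphorins and ephrins are guidance ligands, and plexins, neuropilins and Eph receptors are the receptors they act through. In mouse glomeruli, 51 genes of these families were found among the 16298 gene symbols of the deposited tables. They are all symbols that start with Sema3 to Sema7, Plxna, Plxnb, Plxnc, Plxnd, Efna, Efnb, Epha or Ephb, together with Nrp1 and Nrp2, and with Sema3b left out. The 51 members hold 26 ligands (6 class 3, 6 class 4, 2 class 5, 4 class 6 and 1 class 7 semaphorins, 4 ephrin-A and 3 ephrin-B genes) and 25 receptors (9 plexins, 2 neuropilins, 9 EphA and 5 EphB receptors). Of these, 45 were listed in both arms of the study and 6 after STZ only.

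The study sequenced RNA of glomeruli, the filtering tufts of the kidney, from C57BL/6 mice of a control genotype and from mice lacking the transcriptional regulator DACH1 in podocytes, the epithelium on the outer side of the filter. Its title names the search for DACH1 target genes at baseline and in diabetes. The groups were podocyte-specific DACH1 KO mice after streptozotocin (STZ), control mice after STZ, untreated KO mice and untreated control mice, with 3 different mice in each. STZ, which destroys pancreatic beta cells and so makes mice diabetic, was injected on 5 days at 50 µg per g of body weight per day, and RNA was isolated 10 days later. The untreated mice were 10 weeks old, and the sources used here name neither the age of the STZ mice nor the Cre driver behind the KO. The library titles of the STZ controls carry the word hetN and those of the untreated controls the word Ctrl, with no account of the difference.

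Class 3 semaphorins are secreted and mostly signal through a complex of a neuropilin, which binds them, and a plexin, which carries the signal to the actin cytoskeleton of the receiving cell. The other vertebrate classes are mostly bound to the membrane and bind plexins directly. Ephrins and Eph receptors both sit in the membrane and signal between touching cells in both directions. Ephrin-A proteins are held by a lipid anchor, and ephrin-B proteins span the membrane. In the glomerulus, neuropilin-1 is best known as a co-receptor for VEGF on endothelial cells, and ephrin-B1 has been placed at the podocyte slit diaphragm.

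The libraries held 6.61e+07 to 7.86e+07 counts after STZ and 2.26e+07 to 2.49e+07 counts at baseline. Dach1 ran from 55.8 to 67 CPM (counts scaled to a common library size with TMM factors) in KO STZ libraries, against 145 to 183 CPM in control STZ libraries, and from 47.2 to 59.3 CPM in KO baseline libraries, against 106 to 188 CPM in control baseline libraries. All 10 podocyte markers on the list used were present in every library, and their summed level ran from 33025 to 34532 CPM in KO STZ, 31445 to 39265 CPM in control STZ, 20101 to 24698 CPM in KO baseline and 21847 to 29954 CPM in control baseline glomeruli. Proximal tubule markers were also present and uneven, at 1935 to 8817 summed CPM in KO STZ, 1375 to 9200 in control STZ, 1062 to 21427 in KO baseline and 1832 to 3843 summed CPM in control baseline libraries. Read from Xist and Ddx3y, each baseline group held 2 females and 1 male, and all STZ mice were male except KO STZ replicate 2.

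Sema3g, the gene of the secreted class 3 ligand semaphorin 3G, had the highest level of the ligands listed in each group when counts were set per kilobase of exons. Its mean was 487 CPM per kb in KO STZ, 1085 in control STZ, 334 in KO baseline and 624 CPM per kb in control baseline glomeruli. Of the summed level of the 23 ligands listed in both arms, it made up 57.6% in KO STZ, 71.8% in control STZ, 44.3% in KO baseline and 57.8% in control baseline glomeruli. In control baseline glomeruli it was followed by the membrane-spanning ligands Efnb1 (ephrin-B1) at 109 ± 10.1 CPM per kb and Efnb2 (ephrin-B2) at 78.0 ± 13.5 CPM per kb (SD, n = 3). The libraries of Efnb1 and Efnb2 did not overlap there, whereas Efnb2 overlapped with Sema7a (60.7 CPM per kb), Sema7a with Sema3f (46.9) and Sema3f with Sema5a (45.4 CPM per kb).

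Among receptors, Nrp1 stood first in each group. Its mean level was 139 CPM per kb in KO STZ, 176 in control STZ, 242 in KO baseline and 271 CPM per kb in control baseline glomeruli. Of the summed level of the 22 receptors listed in both arms, it made up 40.4% in KO STZ, 44% in control STZ, 50.3% in KO baseline and 52.7% in control baseline glomeruli. Next in control baseline glomeruli were Ephb4, the receptor of ephrin-B2 (53.4 ± 7.72 CPM per kb), Plxnd1, the plexin that binds semaphorin 3E without a neuropilin (45.9 ± 13.8), and Plxnb2, a receptor of class 4 semaphorins (41.4 ± 4.00 CPM per kb, SD, n = 3). These neighbours overlapped between libraries. Exon lengths came from GENCODE M21, and the sources used here do not name the annotation behind the counts.

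**Figure D1:**
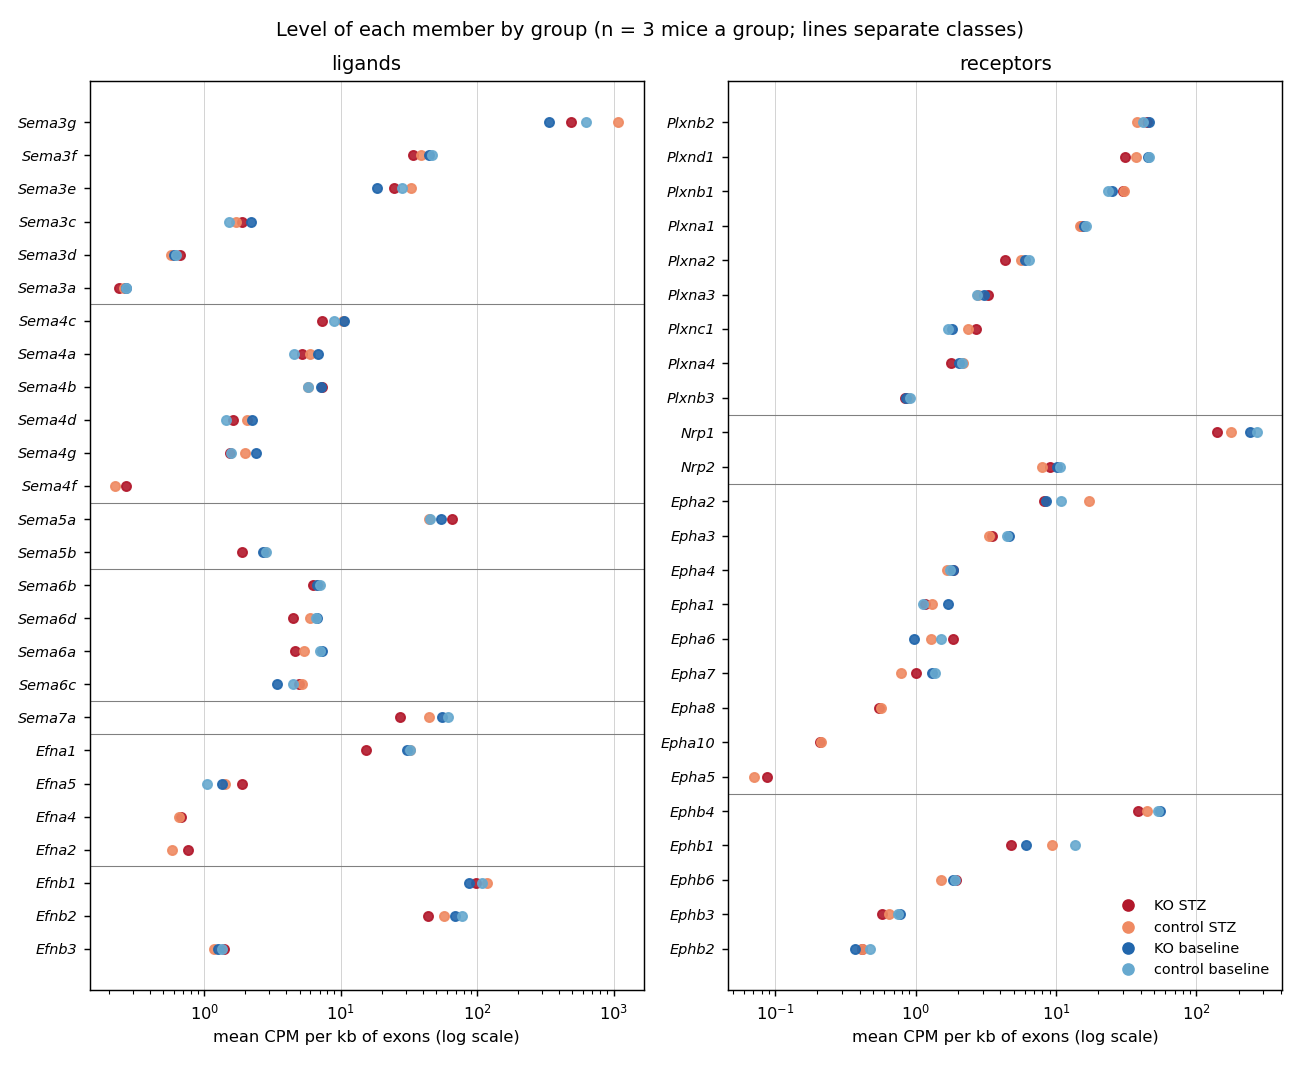
Mean level of the 51 members in CPM per kb of exons (log axis), ligands on the left and receptors on the right, with 1 point for each group of 3 mice. Sema3g and Nrp1 are the rightmost points of their panels, and the 6 members listed after STZ only have points for the STZ groups alone.

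At the low end, 16 members averaged under 10 CPM over the libraries that list them, and 14 averaged at least 100 CPM. Sema3a, the best studied class 3 ligand, was among the low ones at 2.61 to 4.80 CPM over the 12 libraries. The 6 members listed after STZ only were Efna2, Efna4, Epha5, Epha8, Epha10 and Sema4f, at 57 to 238 counts per library. The tables of the arms had been filtered differently before deposit, so a missing entry at baseline gives no level.

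KO and control glomeruli were first compared over both arms, with arm as a term and 6 mice per genotype. Of 45 members tested, 5 were lower and 0 higher in KO glomeruli by edgeR's quasi-likelihood test at an adjusted p under 0.05, where 1.31% of the 13475 genes tested were called lower and 1.51% higher (2.83% in all). They were the ligands Sema3g, Sema3e and Efnb1 and the receptors Epha2 and Ephb1. DESeq2 called the same 5, and 11 of 45 members had an unadjusted p under 0.05, against 12.8% of all genes. The median log2 fold change was -0.07 over the members and 0.00 over all genes, and 26 of 45 members were below 0, against 49.3% of all genes. In whole glomeruli, fewer cells of a type and less RNA per cell cannot be told apart.

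The promoters of 5 genes are shown because each gene was called lower in KO glomeruli over both arms. Their shared direction is how they were chosen, and joint regulation was not tested. Each run holds 250 bases before and 50 bases after the RefSeq start on GRCm38.p6, read 5′ to 3′ on the gene's strand. They lie at chr14:31217623-31217922 (Sema3g, plus strand), chr5:14025026-14025325 (Sema3e, plus strand), chrX:99135811-99136110 (Efnb1, plus strand), chr4:141300971-141301270 (Epha2, plus strand) and chr9:102354644-102354943 (Ephb1, minus strand). Capitals mark matches, on either strand, to the GC box GGGCGG, the CCAAT box CCAAT, the TATA motif TATAA, the cAMP response element TGACGTCA, the E-boxes CACGTG and CAGCTG and the homeodomain motif TAATTA.
Sema3g: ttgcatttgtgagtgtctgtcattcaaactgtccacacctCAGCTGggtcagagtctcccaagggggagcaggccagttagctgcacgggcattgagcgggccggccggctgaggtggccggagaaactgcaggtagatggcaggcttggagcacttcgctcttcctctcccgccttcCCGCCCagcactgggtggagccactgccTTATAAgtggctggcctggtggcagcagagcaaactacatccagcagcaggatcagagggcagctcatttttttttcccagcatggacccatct
Sema3e: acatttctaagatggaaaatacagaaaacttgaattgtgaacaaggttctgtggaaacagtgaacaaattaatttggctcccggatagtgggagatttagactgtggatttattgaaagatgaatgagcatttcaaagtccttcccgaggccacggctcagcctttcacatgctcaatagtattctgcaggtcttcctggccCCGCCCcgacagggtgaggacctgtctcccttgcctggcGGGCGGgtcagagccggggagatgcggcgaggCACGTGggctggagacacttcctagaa
Efnb1: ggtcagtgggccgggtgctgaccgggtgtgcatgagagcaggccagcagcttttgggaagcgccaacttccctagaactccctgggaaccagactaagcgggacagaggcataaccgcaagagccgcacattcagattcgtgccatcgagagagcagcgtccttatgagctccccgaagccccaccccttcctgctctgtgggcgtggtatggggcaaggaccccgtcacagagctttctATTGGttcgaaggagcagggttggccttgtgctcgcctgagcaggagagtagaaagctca
Epha2: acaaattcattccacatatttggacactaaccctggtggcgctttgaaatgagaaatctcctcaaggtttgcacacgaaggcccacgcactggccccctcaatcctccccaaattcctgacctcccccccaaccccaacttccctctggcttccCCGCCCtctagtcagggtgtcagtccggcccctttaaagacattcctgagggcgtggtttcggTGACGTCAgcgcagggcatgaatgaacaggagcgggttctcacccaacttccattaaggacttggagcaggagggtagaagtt
Ephb1: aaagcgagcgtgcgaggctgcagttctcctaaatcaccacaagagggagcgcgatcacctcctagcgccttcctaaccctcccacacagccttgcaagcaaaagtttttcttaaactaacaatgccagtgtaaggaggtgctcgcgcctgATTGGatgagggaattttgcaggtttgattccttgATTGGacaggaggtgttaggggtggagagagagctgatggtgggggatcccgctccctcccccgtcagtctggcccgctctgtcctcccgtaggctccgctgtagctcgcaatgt

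No motif of the 7 was found in all 5 windows. GC boxes were found in Sema3g, Sema3e and Epha2, CCAAT boxes in Efnb1 and Ephb1 (at 2 places in Ephb1), and a TATA motif only in Sema3g, where the matches on the 2 strands overlap. The window of Epha2 holds a cAMP response element, that of Sema3e the E-box CACGTG and that of Sema3g the E-box CAGCTG, and none holds TAATTA. Of 32817 RefSeq promoters of the same length, 35.6% hold a GC box, 37.4% a CCAAT box, 24.9% TATAA, 1.79% TGACGTCA, 7.15% CACGTG, 16.3% CAGCTG and 5.3% TAATTA. A match is a string of letters and not a shown binding site.

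Sema3g (chromosome 14, 31217860 to 31230352) had 2729, 1424 and 2483 CPM in the 3 KO STZ libraries, against 5307, 5103 and 4365 CPM in control STZ libraries. At baseline it had 1793, 1361 and 1397 CPM in KO libraries, against 3455, 2445 and 2595 CPM in controls. Every KO library lay below every control library of its arm. The log2 fold change was -1.03 over both arms (SE 0.17, 95% interval -1.40 to -0.66, adjusted p = 0.00607 by edgeR's quasi-likelihood test), a level of 0.491 times that of controls. Within the arms it was -1.16 after STZ (adjusted p = 0.137) and -0.90 at baseline (adjusted p = 0.311), so that edgeR called it in neither arm alone, whereas DESeq2 called it in both. Sema3g was called with any one of the 12 libraries left out, with adjusted p between 0.00496 and 0.0213.

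Sema3e (chromosome 5, 14025276 to 14256689), the secreted ligand of plexin-D1, had 219, 271 and 191 CPM in KO STZ libraries and 299, 370 and 252 CPM in control STZ libraries. At baseline it had 167, 191 and 154 CPM in KO libraries and 292, 215 and 275 CPM in controls. The genotypes overlapped after STZ and did not overlap at baseline. Over both arms the log2 fold change was -0.52 (SE 0.13, adjusted p = 0.0496 by edgeR), -0.43 after STZ (adjusted p = 0.615) and -0.61 at baseline (adjusted p = 0.368). The call over both arms was lost with any library left out except control STZ replicate 3 and KO STZ replicate 2, with adjusted p between 0.0543 and 0.131, and also with RLE scaling (adjusted p = 0.0619) and with the mean of the tubule markers as covariate (adjusted p = 0.0521). Its receptor gene Plxnd1 had 185, 278 and 212 CPM in KO STZ, 258, 290 and 259 in control STZ, 281, 400 and 308 in KO baseline and 273, 451 and 281 CPM in control baseline libraries, overlapping between the genotypes in both arms (log2 fold change -0.14, SE 0.15, adjusted p = 0.781 over both arms).

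Efnb1 (chromosome X, 99136130 to 99148991) showed the smallest of the 5 differences. It had 345, 337 and 330 CPM in KO STZ libraries, against 411, 417 and 389 CPM in control STZ libraries, and 311, 321 and 266 CPM in KO baseline libraries, against 398, 336 and 395 CPM in control baseline libraries. The genotypes did not overlap in either arm. Its log2 fold change was -0.30 over both arms (SE 0.07, adjusted p = 0.0479 by edgeR), -0.26 after STZ (adjusted p = 0.530) and -0.33 at baseline (adjusted p = 0.686). Leaving out any one of the 12 libraries ended the call, with adjusted p between 0.0533 and 0.141, and so did RLE scaling (adjusted p = 0.0638) and sex as a covariate (adjusted p = 0.0691).

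Epha2 (chromosome 4, 141301240 to 141329384), a receptor of ephrin-A ligands that is common in epithelia, had 28.4, 46.4 and 40.0 CPM in KO STZ libraries and 88.8, 78.7 and 75.1 CPM in control STZ libraries. At baseline it had 44.2, 38.3 and 37.1 CPM in KO libraries and 50.9, 53.7 and 48.3 CPM in controls. The genotypes did not overlap in either arm, and the gap was wider after STZ. The log2 fold change was -0.72 over both arms (SE 0.15, adjusted p = 0.0279 by edgeR), -1.07 after STZ (adjusted p = 0.0809) and -0.35 at baseline (adjusted p = 0.510). The call over both arms was lost without any one of control STZ replicates 1 to 3, KO STZ replicates 2 and 3, control baseline replicate 2 and KO baseline replicates 2 and 3, with adjusted p between 0.0563 and 0.0813.

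Ephb1 (chromosome 9, 101922128 to 102354693), a receptor of ephrin-B ligands, had 39.3, 33.0 and 28.3 CPM in KO STZ libraries and 64.9, 66.2 and 66.9 CPM in control STZ libraries. At baseline it had 64.1, 30.1 and 33.3 CPM in KO libraries and 127, 52.3 and 105 CPM in controls. The STZ libraries fell into separate ranges, with controls between 64.9 and 66.9 CPM, and the baseline libraries overlapped, with KO replicate 1 above control replicate 2. The log2 fold change over both arms was -1.07 (SE 0.23, adjusted p = 0.0279 by edgeR) and -1.16 at baseline (SE 0.42, adjusted p = 0.679). The call over both arms was lost without any one of control STZ replicates 1 to 3, KO STZ replicates 2 and 3, control baseline replicates 1 and 3 and KO baseline replicates 2 and 3, with adjusted p between 0.0543 and 0.0764.

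**Figure D2:**
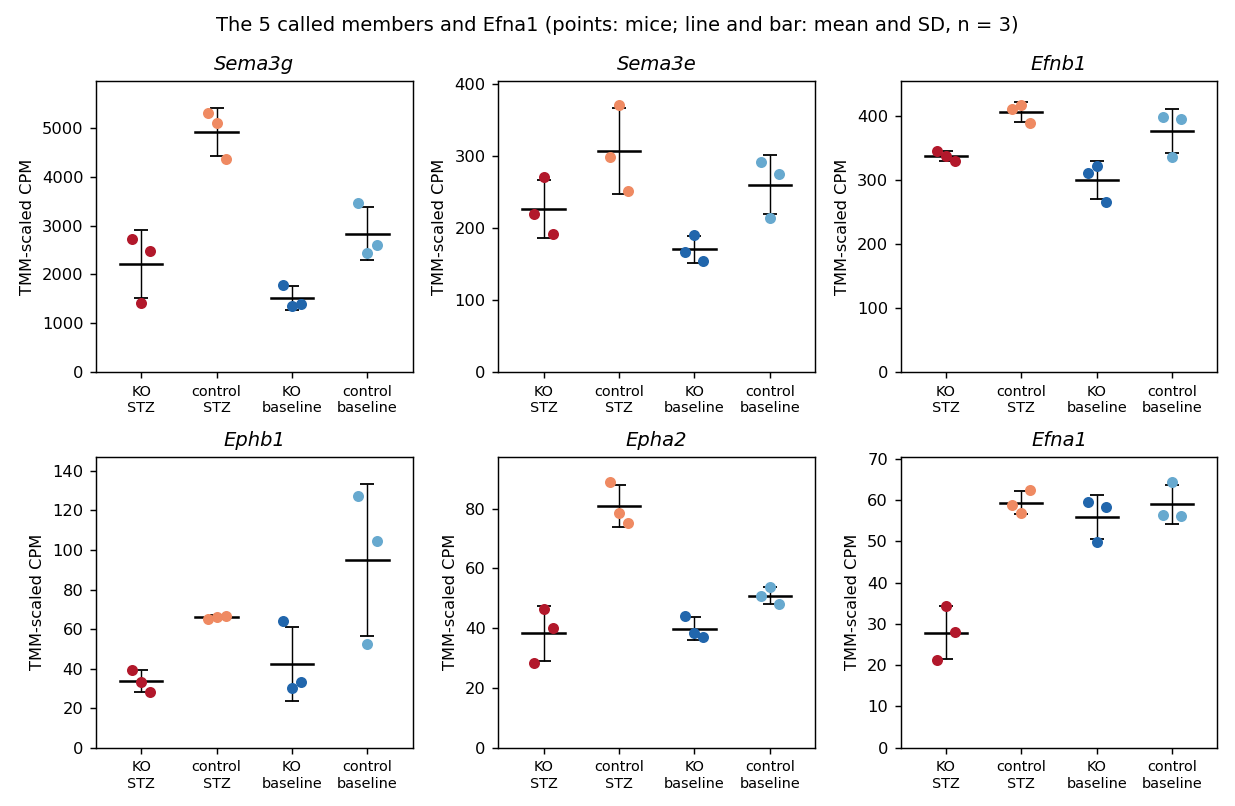
Level in CPM (TMM-scaled, axis from 0) of the 5 members lower in KO glomeruli and of Efna1 in each of the 12 mice, with the mean and SD of 3 mice. Sema3g, Efnb1 and Epha2 have no KO mouse within the control range of its arm, and Efna1 is separate after STZ only.

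Of the 45 members, 3 (Sema3g, Efnb1 and Epha2) had KO libraries below all control libraries in both arms, against 2.04% of all genes, and 0 had KO libraries above in both arms, against 2.1%. Markers of podocytes moved in the same comparison, with 3 of 10 called lower over both arms, among them Synpo, an actin-binding protein, at a log2 fold change of -0.56 (adjusted p = 0.00802 by edgeR), and Tdrd5 at -1.24 (adjusted p = 0.0302). Of the 10 markers 7 were below 0, against 49.3% of genes, and 1.31% of genes were called lower. Nphs1, the gene of nephrin, was not called and had 2821, 3295 and 2964 CPM in KO STZ libraries against 2349, 2673 and 2475 CPM in control STZ libraries. Ptpro, a podocyte phosphatase, was not called either and had 1722, 2037 and 1762 CPM in KO STZ libraries against 1343, 1412 and 1372 CPM in control STZ libraries. In both genes the KO STZ libraries were the higher ones, without overlap. Among 4 markers of parietal epithelium, Ncam1 was called lower at -0.98 (adjusted p = 0.000550). The 5 tested markers of smooth muscle and renin cells were all below 0 at baseline, with a median log2 fold change of -0.97, and over both arms, with a median of -0.49. Of these markers edgeR called 0 in either comparison (4 and 2 with an unadjusted p under 0.05), and DESeq2 called Ren1 and Akr1b7 at baseline and Ren1 over both arms. Their summed level was 409 to 686 CPM in KO STZ, 504 to 701 CPM in control STZ, 325 to 400 CPM in KO baseline and 615 to 919 CPM in control baseline libraries, separate at baseline and overlapping after STZ. Its part in the values of the members was not tested. Set against the summed podocyte markers, Sema3g was 4.31% to 8% in KO STZ, 13% to 15.1% in control STZ, 6.02% to 7.26% in KO baseline and 9.15% to 11.5% in control baseline libraries, with no overlap in either arm. Sema3e was 0.554% to 0.819% of the same sum in KO STZ, 0.801% to 0.943% in control STZ, 0.674% to 0.845% in KO baseline and 0.969% to 0.982% in control baseline libraries, separate at baseline and overlapping after STZ. Efnb1, Epha2 and Ephb1, taken against the same sum, were separate after STZ and overlapped at baseline. With the mean of the podocyte markers as a covariate, which was chosen after seeing the data, 0 of 45 members were called by edgeR, and Sema3g stood at -0.95 (adjusted p = 0.110). In that fit Epha2 stood at -0.82 (adjusted p = 0.122), Ephb1 at -0.61 (adjusted p = 0.486), Sema3e at -0.25 (adjusted p = 0.621) and Efnb1 at -0.18 (adjusted p = 0.547).

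After STZ, 1 of 51 members was called, Ephb1, which was lower in KO glomeruli, where 0.233% of 16291 genes were called lower, 0.841% higher and 1.07% in either direction. Its log2 fold change was -0.97 (SE 0.14, 95% interval -1.30 to -0.64, adjusted p = 0.0332 by edgeR's quasi-likelihood test). Leaving out any one library of the arm except KO STZ replicate 1 ended the call, with adjusted p between 0.0731 and 0.153, and so did sex as a covariate (log2 fold change -0.97, adjusted p = 0.135) and the podocyte mean as a covariate (-1.04, adjusted p = 0.230), the podocyte one being chosen after seeing the data. Over all these settings the fold change lay between -1.10 and -0.87. DESeq2 called 4 members, all lower in KO glomeruli, namely Ephb1, Sema3g, Epha2 and Efna1. An unadjusted p under 0.05 was found for 8 of 51 members, against 9.08% of genes, 30 of 51 members were below 0, against 53.4%, and the median log2 fold change was -0.06 over the members and -0.02 over all genes.

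Efna1, the gene of ephrin-A1, a ligand of EphA2, had 21.4, 34.3 and 27.9 CPM in KO STZ libraries and 58.8, 57.0 and 62.5 CPM in control STZ libraries. At baseline it had 59.7, 49.8 and 58.5 CPM in KO libraries and 56.3, 64.4 and 56.2 CPM in controls. The 3 KO STZ libraries lay below the other 9 libraries, and the genotypes overlapped at baseline. After STZ the log2 fold change was -1.08 (SE 0.19; adjusted p = 0.0603 by edgeR), and it was -0.08 at baseline (SE 0.11, adjusted p = 0.895).

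Some members had KO and control STZ libraries that did not overlap. KO libraries were lower for 6 of 51 members, Sema3g, Efnb1, Epha2, Ephb1, Efna1 and Efnb2, against 6.73% of genes, and higher for 4, against 8.43%. Efnb2 had 272, 309 and 320 CPM in KO STZ libraries and 357, 453 and 364 CPM in control STZ libraries (log2 fold change -0.37, SE 0.15, adjusted p = 0.502 by edgeR). The 10 markers of glomerular endothelium were all below 0 after STZ, against 53.4% of genes, with a median log2 fold change of -0.22. Over both arms they were also all below 0, with a median of -0.11. In either comparison edgeR and DESeq2 called 0 of them. The part of endothelial content in the members' values was not tested. The 4 with higher KO libraries were Plxna3, Ephb6, Sema5a and Epha5. Plxna3, a plexin of the class that pairs with neuropilins, had 24.8, 26.7 and 25.8 CPM in KO STZ libraries and 20.7, 23.4 and 21.8 CPM in control STZ libraries (log2 fold change 0.24, SE 0.11, adjusted p = 0.630), and at baseline it had 21.4, 26.1 and 24.6 CPM in KO libraries and 21.6, 22.3 and 20.4 CPM in controls. Ephb6, an Eph receptor without kinase activity, had 7.49, 7.62 and 6.88 CPM in KO STZ libraries and 6.19, 5.58 and 5.39 CPM in control STZ libraries (log2 fold change 0.36, SE 0.14, adjusted p = 0.490), and at baseline 5.66, 6.53 and 8.56 CPM in KO libraries and 6.24, 7.86 and 7.50 CPM in controls. Both genes overlapped between the genotypes at baseline.

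Sema5a, a membrane-bound semaphorin with thrombospondin repeats, was picked out after its values were seen. It had 1123, 1377 and 1159 CPM in KO STZ libraries and 803, 998 and 676 CPM in control STZ libraries, and 1317, 922 and 821 CPM in KO baseline libraries against 868, 747 and 929 CPM in control baseline libraries. The groups were separate after STZ and overlapped at baseline. Its log2 fold change was 0.57 after STZ (SE 0.19, adjusted p = 0.376) and 0.41 over both arms (SE 0.14, adjusted p = 0.197 by edgeR). With the mean of the tubule markers as covariate, edgeR called Sema5a higher over both arms. All 4 class 6 semaphorins, membrane-spanning ligands of plexin-A receptors, were below 0 over both arms, from -0.23 (Sema6c) to -0.09 (Sema6b), and 0 of them were called by edgeR or DESeq2 or had an unadjusted p under 0.05. Over the members not called in that comparison, log2 fold changes ran from -0.59 (Efna1) to 0.41 (Sema5a). Semaphorin 7A, a lipid-anchored ligand of plexin-C1, had a wide spread, with Sema7a at 61.3 to 129 CPM in KO STZ and 51.0 to 291 CPM in control STZ libraries, and at 118 to 272 CPM in KO baseline and 149 to 253 CPM in control baseline libraries.

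At baseline, 0 of 45 members were called by edgeR's quasi-likelihood test, where 0.0594% of 13475 genes were called lower and 0.23% in either direction. Log2 fold changes were below 0 for 26 members, against 47.6% of genes, with a median of -0.05 over the members and 0.01 over all genes. An unadjusted p under 0.05 was found for 5 members, against 6.94% of genes, and DESeq2 called 2, Sema3e and Sema3g, both lower in KO glomeruli. KO libraries lay below control libraries for 5 of 45 members (Sema3g, Sema3e, Efnb1, Epha2 and Efnb3), against 6.85% of genes, and above them for 0, against 4.98%. All 5 class 4 semaphorins listed at baseline had log2 fold changes above 0, from 0.25 (Sema4c) to 0.65 (Sema4d), and 0 of them were called. After STZ 4 of 6 class 4 semaphorins were below 0, from -0.52 (Sema4c) to 0.34 (Sema4b), with a median of -0.26. Sema4d had 5.18, 24 and 22.8 CPM in the 3 KO libraries, against 7.67, 14.9 and 10.7 CPM in controls, and Sema4a had 11.5, 51.8 and 46.7 CPM in KO libraries, against 18.6, 34.0 and 21.3 CPM in controls. The same KO replicates 2 and 3 that were high in both genes had the highest proximal tubule marker means of the baseline arm, at 8.72 and 9.26 on the log2 CPM scale against 6.10 in KO replicate 1 and 6.83 to 7.88 in controls, and the part of tubule RNA in the values of these 2 genes was not tested. With that marker mean as a covariate, 0 members were called at baseline by edgeR.

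**Figure D3:**
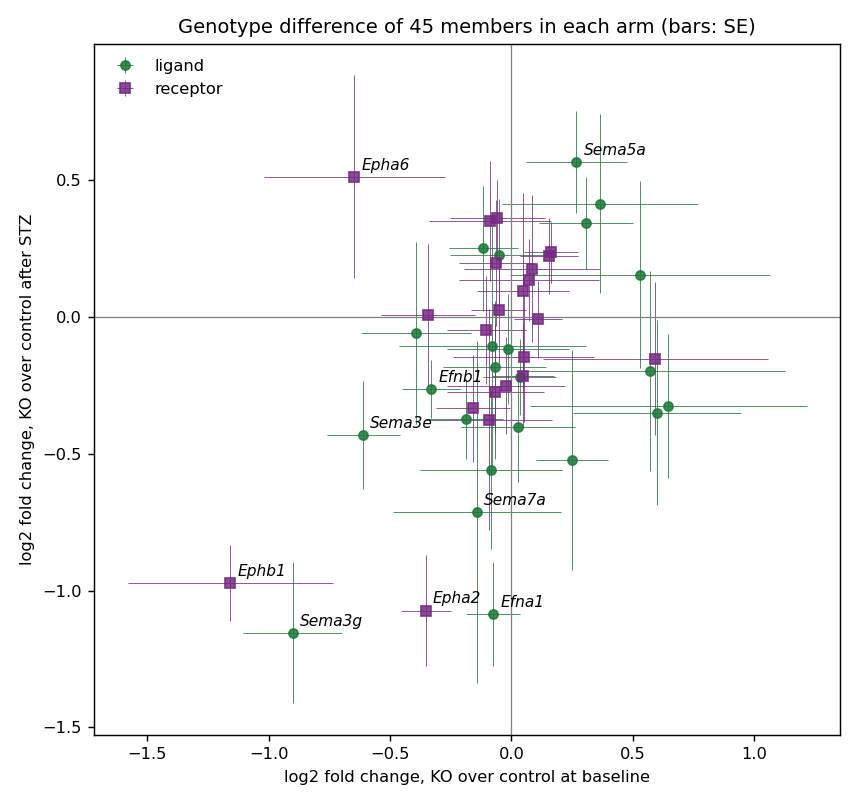
Log2 fold change of KO over control after STZ (vertical axis) against that at baseline (horizontal axis) for the 45 members listed in both arms, with circles for ligands, squares for receptors and bars of 1 SE. Sema3g, Ephb1, Sema3e, Epha2 and Efnb1 lie below 0 on both axes, and Efna1 lies near 0 at baseline and at -1.08 after STZ.

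The genotype difference itself differed between the arms for 0 of 45 members by edgeR's interaction test, where 1 of 13475 genes (0.00742%) was called. Interactions were below 0 for 24 members, against 55.1% of genes. An unadjusted p under 0.05 was found for 2 members, against 3.67% of genes, and DESeq2 called 1, Efna1. Efna1 had an interaction of -1.02 on the log2 scale (SE 0.22, 95% interval -1.50 to -0.53, adjusted p = 0.559 by edgeR) and Epha2 one of -0.73 (SE 0.23, adjusted p = 0.98). The KO libraries of Epha2 lay further below their controls after STZ than at baseline. Those of Efna1 lay below their controls after STZ and overlapped with them at baseline.

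STZ and baseline glomeruli were then set against each other within each genotype. The arms also differ in depth, in the filter on the tables, in sex and, among controls, in the title words hetN and Ctrl. The age of the STZ mice is not named, so the arms may differ in age too. An effect of STZ and these differences cannot be told apart. In KO mice, 0 of 45 members were called by edgeR's quasi-likelihood test, where 0.0668% of 13473 genes were called lower and 0.178% in either direction, and 9 had an unadjusted p under 0.05, against 14.7% of genes. Log2 fold changes were below 0 for 31 members in KO mice, against 53.1% of genes. DESeq2 called 5, all lower after STZ, namely Nrp1, Efnb2, Ephb4, Efna1 and Sema6a. In controls, 0 of 45 were called by edgeR, where 0.0445% of 13473 genes were called higher and 0.23% in either direction, and 8 had an unadjusted p under 0.05, against 12.6%. Below 0 were 30 members in controls, against 46.3% of genes. DESeq2 called 3 in controls, with Sema3g and Epha2 higher and Nrp1 lower after STZ.

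Nrp1 had 1456, 1481 and 1153 CPM in KO STZ libraries, against 2654, 2395 and 2066 CPM in KO baseline libraries. It had 1729, 2058 and 1380 CPM in control STZ libraries, against 2651, 2641 and 2659 CPM in control baseline libraries. In both genotypes every STZ library lay below every baseline library. On the log2 scale the fold change was -0.83 in KO mice (SE 0.18, adjusted p = 0.138 by edgeR) and -0.65 in controls (SE 0.19, adjusted p = 0.291). The summed markers of glomerular endothelium, where Nrp1 is well known, were 8250 to 11121 CPM in KO STZ and 11386 to 19768 CPM in KO baseline libraries, and 8437 to 16950 CPM in control STZ and 13848 to 16617 CPM in control baseline libraries. The part of endothelial content in the Nrp1 values was not tested.

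Ephrin-B2 and its receptor EphB4, a pair known from arteries and veins, showed the same order of the arms in KO mice. Efnb2 had 272, 309 and 320 CPM in KO STZ libraries and 467, 506 and 434 CPM in KO baseline libraries (log2 fold change -0.67, SE 0.13, adjusted p = 0.114 by edgeR). Ephb4 had 177, 187 and 169 CPM in KO STZ libraries and 254, 271 and 243 CPM in KO baseline libraries (log2 fold change -0.55, SE 0.10, adjusted p = 0.114). In controls Efnb2 overlapped between the arms, at 357, 453 and 364 CPM after STZ and 431, 609 and 565 CPM at baseline (log2 fold change -0.48, SE 0.18, adjusted p = 0.358). Ephb4 also overlapped between the arms in controls, at 265, 182 and 172 CPM after STZ and 212, 284 and 247 CPM at baseline (log2 fold change -0.29, adjusted p = 0.595). Sema3g was separate between the arms in controls (0.77 on the log2 scale, SE 0.21, adjusted p = 0.266 by edgeR), and the summed podocyte markers of those libraries were also higher after STZ, without overlap. Of 7 mesangial markers, edgeR called 1 lower after STZ in controls, against 0.186% of genes, and 0 in KO mice. Below 0 were 7 in controls, against 46.3% of genes, with a median log2 fold change of -0.99. In KO mice 6 were below 0, against 53.1%, with a median of -0.80. An unadjusted p under 0.05 was found for 6 markers in each genotype, against 12.6% of genes in controls and 14.7% in KO mice. DESeq2 called 6 in controls and 5 in KO mice. The mesangial sum was 2292 to 3355 CPM in KO STZ and 4314 to 4546 CPM in KO baseline libraries. In controls it was 1900 to 2794 CPM after STZ and 4315 to 5474 CPM at baseline. The 10 tested markers of immune cells had a median log2 fold change of 1.51 for STZ in KO mice and 1.92 in controls. Of them edgeR called 0 in either comparison (8 in KO mice and 7 in controls with an unadjusted p under 0.05), and DESeq2 called 7 in KO mice and 0 in controls. Their summed level was 162 to 450 CPM in KO STZ and 90.9 to 118 CPM in KO baseline libraries, and in controls 1024, 212 and 210 CPM after STZ, with replicate 1 apart, against 79.7 to 128 CPM at baseline. The part of these cells in the members' values was not tested.

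**Figure D4:**
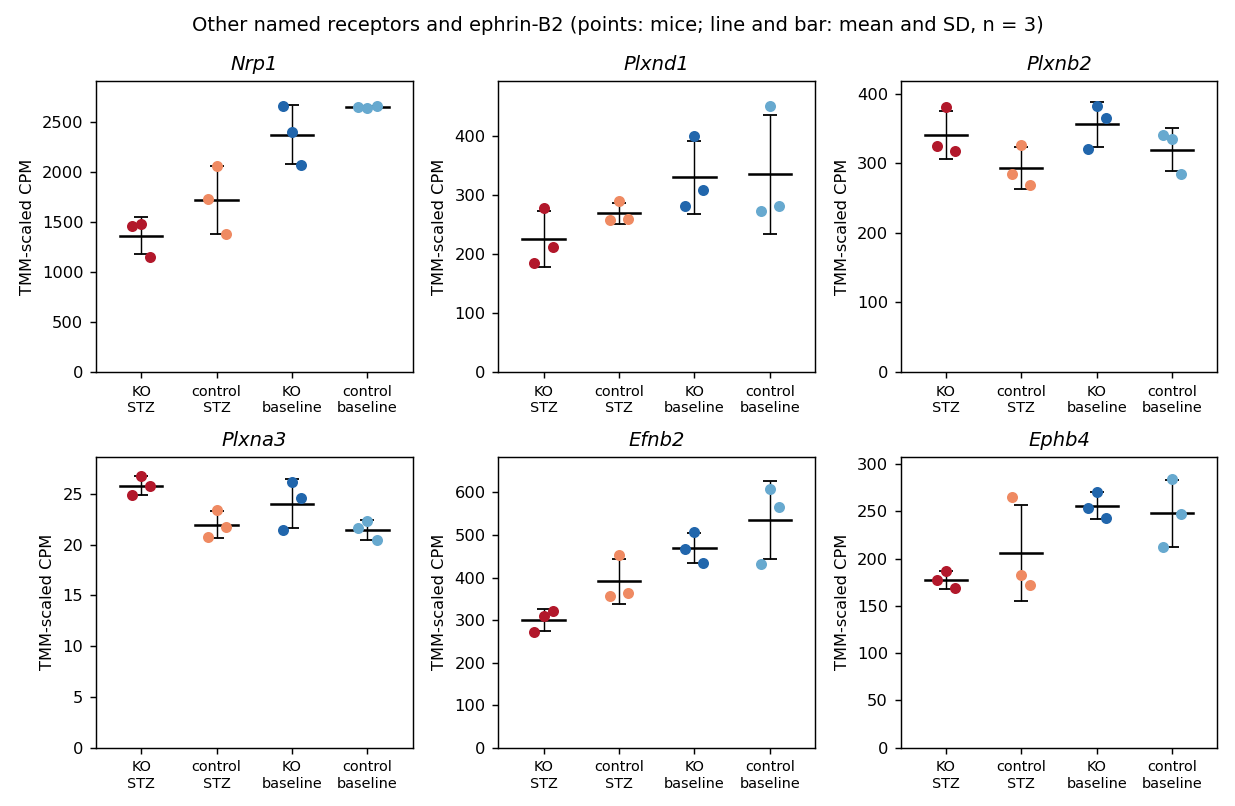
Level in CPM (TMM-scaled, axis from 0) of Nrp1, Plxnd1, Plxnb2, Plxna3, Efnb2 and Ephb4 in each of the 12 mice, with the mean and SD of 3 mice. Nrp1 lies between 1153 and 2058 CPM in the STZ mice and between 2066 and 2659 CPM in the baseline mice, and Plxnb2 overlaps among the 4 groups.

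STZ libraries were above baseline libraries for 4 of 45 members in KO mice (Efnb1, Sema3e, Plxnb1 and Sema6c), against 12.9% of genes, and below them for 7 (Efna1, Efnb2, Ephb4, Nrp1, Plxnd1, Sema6a and Sema6d), against 9.58%. In controls they were above for 3 (Sema3g, Epha2 and Plxnb1), against 11.6% of genes, and below for 5 (Nrp1, Epha7, Ephb6, Efnb3 and Sema6a), against 8.73%. Epha7, an ephrin-A receptor, had 10.6, 11.9 and 7.24 CPM in KO STZ, 6.84, 9.06 and 7.46 in control STZ, 10.2, 14.2 and 14.1 in KO baseline and 9.97, 18.1 and 12.9 CPM in control baseline libraries (log2 fold change -0.84 for STZ in controls, SE 0.24, adjusted p = 0.274 by edgeR). The median log2 fold change of the members was -0.20 in KO mice, against -0.02 over all genes, and -0.10 in controls, against 0.02.

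Of the plexins and neuropilins, 0 of 11 were called in any of the 6 comparisons by edgeR. DESeq2 called Nrp1 alone among them, in the comparisons of STZ with baseline, and over both arms 2 plexins, Plxna3 and Plxnb2, had an unadjusted p under 0.05. Over both arms the 9 plexins ran from -0.24 (Plxna2) to 0.20 (Plxna3) on the log2 scale. Plxnb2 had 325, 381 and 317 CPM in KO STZ, 285, 327 and 269 in control STZ, 320, 383 and 365 in KO baseline and 340, 335 and 284 CPM in control baseline libraries (log2 fold change 0.19 over both arms, SE 0.08, adjusted p = 0.380). Nrp1 stood at -0.25 over both arms (SE 0.12, adjusted p = 0.410).

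Lists of partners of these families were set, over both arms, beside all genes, of which 2.83% were called and 12.8% had an unadjusted p under 0.05. Of 8 semaphorin co-receptors 7 were tested and 0 called by edgeR or DESeq2 (1 with an unadjusted p under 0.05), with a median log2 fold change of 0.04. Of 21 genes of plexin signalling 19 were tested and 0 called by edgeR (4 with an unadjusted p under 0.05, and 1, Dpysl2, called by DESeq2). Of the 19, 7 were below 0, with a median log2 fold change of 0.03, and the 3 with the smallest p were Dpysl2, a collapsin response mediator, at -0.38 (adjusted p = 0.0986), Rnd3, a GTPase that binds plexins, at -0.62 (adjusted p = 0.142), and Mical3, of the MICAL monooxygenase family, at 0.18 (adjusted p = 0.206). Of 21 genes of Eph and ephrin signalling 21 were tested, and edgeR called 1 higher and 1 lower (3 with an unadjusted p under 0.05). Of the 21, 13 were below 0, with a median log2 fold change of -0.03. Anks1b, of a family of Eph receptor adaptors, was higher in KO glomeruli by 0.86 on the log2 scale (adjusted p = 0.0201). Nck2, an adaptor between Eph receptors and actin, was lower by 0.38 on the log2 scale (adjusted p = 0.0188). Anks1b had 5.92, 6.15 and 7.36 CPM in KO STZ, 2.45, 3.04 and 5.08 in control STZ, 4.23, 5.18 and 4.94 in KO baseline and 3.03, 2.20 and 2.82 CPM in control baseline libraries, separate in both arms. Nck2 had 74.3, 74.8 and 72.5 CPM in KO STZ, 86.0, 82.2 and 88.3 in control STZ, 74.1, 72.8 and 69.2 in KO baseline and 115, 94.9 and 106 CPM in control baseline libraries, also separate in both arms.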

How the data were processed

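RNA was measured in isolated mouse glomeruli, collected by perfusion with magnetic beads per the labels' protocols, in 12 libraries, 3 mice in each of 4 groups. The authors deposited estimated counts per gene symbol, 1 table per library, not scaled to depth. BWA and mm10 are named, without a role, in the submitters' processing notes. The sources used here do not give the counting tool, annotation or strand handling. Where exons of a member and another gene overlap on the opposite strand, reads of the pair cannot be told apart unless strand was used in counting. Among pairs with both genes listed, Epha1 and Zyx share 236 bases, 6.01% of the Epha1 exons, and Ephb4 and Zan 33 bases. Some members overlap genes listed in neither arm, among them Plxna1 with Gm26811 (970 bases, 10.7% of the Plxna1 exons) and Ephb1 with Gm26846 (152 bases, 2.17%).

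Values were rounded to whole numbers, and 18 blanks were taken as 0. Genes were filtered with filterByExpr, scaled with TMM factors and tested over all genes in 6 comparisons with the quasi-likelihood test of edgeR 4.0.16 (R 4.3.3, limma 3.58.1), with Benjamini-Hochberg adjustment at 0.05. STZ and interaction fits used genes listed in both arms. CPM are on one TMM scale over the 12 libraries (over the 6 STZ libraries for members listed there only). The SE came from the F statistic. P-values set a difference against the spread between mice of a group, estimated with information shared across genes. In the fit over both arms, without an interaction term, that spread also holds any change of the genotype difference between arms. Alternatives were RLE scaling, DESeq2 1.42.0, no filter, leaving out each library, and covariates. The steps were tested on simulated data.

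Members given in full are those called in any comparison, those separate in both arms, those of smallest p until each of 5 classes had 2, and the 3 ligands and 3 receptors of highest level. The members and lists were chosen with earlier results of these data known. Positions of genes are from GENCODE M21 (GRCm38), and promoters are from RefSeq, GRCm38.p6, for the 5 called members.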

Additional observations from a re-analysis of the deposited data

How the results depend on the processing

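No paired analysis was possible because the replicate numbers were given in accession order and the labels pair no mice across groups. With the first number of the baseline library titles as a block, 0 members were called at baseline.

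The count of members called over both arms was 5, and it was 3 with RLE scaling, 0 with the podocyte marker mean as covariate, 4 with sex (without Efnb1), 5 with the tubule marker mean (Sema5a higher, and the others lower without Sema3e) and 1 to 3 with a library left out. Sema3g was called with each of the 12 libraries left out. After STZ the count of 1 became 4 with DESeq2, 3 with the proximal tubule mean as covariate, 0 with the podocyte mean, 0 with sex and 0 to 1 with a library left out. DESeq2 called 2 members at baseline, 3 for STZ in controls, 5 for STZ in KO mice and 1 for the interaction, where edgeR called 0, and the counts were 0 with each library left out. Epha7 over both arms reversed to -0.027 with the podocyte mean as covariate (0.13 without it), and Ephb4, at -0.09 with all libraries, ran from -0.14 without control baseline replicate 1 to 0.028 without control STZ replicate 1 and stood at -0.32 with the podocyte mean. Alternative fold changes numbered 264, over 15 results (14 named members over both arms and Ephb1 after STZ). Of the 264, 207 kept their direction and side of the threshold, 55 kept the direction but lost the call, 0 gained one and 2 reversed. Only results called in the main fit could lose a call, and the others kept their side by staying uncalled. Over both arms, leaving out 1 of the 12 libraries ended the call of Efnb1 in 12 fits, Sema3e in 10, Ephb1 in 9, Epha2 in 8 and Sema3g in 0. Outside these 15 results, Efna1 and Epha2 after STZ gained a call with DESeq2 and with the tubule covariate, and Sema3g after STZ with DESeq2. The podocyte covariate, and sex in the STZ and interaction fits, were chosen after seeing the data. The cause of these differences was not tested.

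Over all genes, DESeq2 called 220 at baseline where edgeR called 31, 565 after STZ (175), 697 over both arms (381), 410 for STZ in controls (31), 805 for STZ in KO mice (24) and 31 for the interaction (1). The tubule covariate gave 66, 332 and 567 calls by edgeR, the podocyte covariate 1, 18 and 169 and the sex covariate 10, 63 and 336, for KO at baseline, after STZ and over both arms. The sex covariate gave 6 for STZ in controls, 9 for STZ in KO mice and 0 for the interaction. The title block gave 60 at baseline, and leaving out a library gave 4 to 51 at baseline and 40 to 109 after STZ. The lowest count of a member in a listed library was 56 (Efna5).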
